A study of Drosophila melanogaster with 12 samples.

Results

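The siRNA and microRNA pathway genes followed here are 10 genes of dicing, Argonaute loading, the microprocessor and small RNA methylation: Dcr-1, Dcr-2, AGO1, AGO2, r2d2, loqs, pasha, drosha, Hen1 and Ars2. Members were all probe sets that the array's annotation pairs with these genes by gene ID. Each ID was looked up from the gene's symbol in a RefSeq gene table. That gave 7 probe sets, 1 each for drosha, pasha, Ars2, loqs, Dcr-2, r2d2 and Hen1, out of 18952 probe sets on the array. No probe set is paired by gene ID with Dcr-1, AGO1 or AGO2 in the annotation used, so these 3 genes were not analysed here. The annotation's symbols were not searched separately. All 7 probe sets reached log2 4, taken as the lower limit of signal, on all 12 arrays, and none was lost to the filter on low values.

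RNA came from brains of 3-day-old female Drosophila melanogaster, about 20 brains per sample, with 4 samples per genotype and 1 Affymetrix array per sample. CAG100 flies (elav-GAL4; UAS-DsRed-CAG100) carried 5 copies of a DsRed reporter with an uninterrupted run of CAG units behind its coding sequence, a repeat the labels call toxic. CAA/G105 flies (elav-GAL4; UAS-DsRed-CAA/G105) carried 2 copies of the reporter with a repeat of CAG interrupted by CAA, which the labels call non-toxic. CAG0 flies (elav-GAL4; UAS-DsRed-CAG0) carried 1 copy of the reporter with no repeat. All 3 genotypes therefore shared the elav-GAL4 driver and DsRed, and copy numbers were chosen by the submitters to match reporter mRNA. Repeat and copy number differed together between the genotypes, so their parts in a difference cannot be told apart. The driver acts in neurons while the RNA is that of the whole dissected brain, from which eyes, lamina and outer medulla had been taken off, so a change in 1 cell type is diluted and fewer cells of a type cannot be told apart from less RNA per cell.

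In flies the microprocessor, made of the RNase III enzyme Drosha and its double-stranded RNA binding partner Pasha, cuts microRNA hairpins out of nuclear transcripts. Dicer-1 with Loquacious then cuts microRNA precursors for Argonaute-1, while Dicer-2 cuts long double-stranded RNA into siRNAs that it loads with R2D2 into Argonaute-2. Long CAG runs can fold into hairpins, and Dicer-2 is known in flies to process double-stranded repeat RNA into small RNAs. The array measures the mRNA of these factors, not their activity or the small RNAs themselves.

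All levels below are the deposited log2 signals. A mean carries its SD over 4 arrays, and a log2 difference its SE from limma, with p adjusted by the Benjamini-Hochberg method over 8966 tested probe sets. A difference was called when adjusted p was under 0.05. Between 2 arrays of the same genotype r was at least 0.9957, and across genotypes it was at most 0.996. The 5 neuronal marker genes with a probe set averaged log2 12.30 to 12.56 in CAG100 brains, 12.37 to 12.52 in CAA/G105 brains and 12.44 to 12.65 in CAG0 brains, and the 7 glial ones 13.38 to 13.46, 13.42 to 13.47 and 13.33 to 13.45. Single markers were called within these narrow ranges: the glial genes alrm, repo and moody are given beside the members they moved with, and the neuronal calcium channel gene cac was lower in CAG100 than in CAG0 (-0.15, adjusted p = 0.0281), a call lost in 9 of 23 alternatives. Those were no filter, arrays shifted to the same median, no variance trend, and leaving out CAG0 replicate 1, 2 or 4 or CAG100 replicate 2, 3 or 4 (adjusted p = 0.0584 to 0.0979). Signal of Akh, which encodes the adipokinetic hormone of the corpora cardiaca, was missing (2.43 or less) from CAG100 replicates 1 and 3 and from CAA/G105 replicate 3, whereas the remaining 9 arrays read 11.04 or more. The oocyte gene osk read 5.77 and 8.89 on CAG0 replicates 3 and 4 and at most 2.39 on the other 10. CAG100 replicates 1 and 3 and CAA/G105 replicate 3 are called the 3 Akh-negative arrays below, and the calls are also given with them left out.

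In CAG100 against CAG0, 4 of the 7 measured genes were lower (drosha, pasha, Ars2 and Dcr-2), 1 was higher (Hen1), and r2d2 and loqs did not pass. Of all tested probe sets 18.3% were called in that comparison, 10.4% as lower and 7.86% as higher. That split depended on scaling: 705 were higher and 934 lower as deposited, against 877 higher and 751 lower after shifting arrays to the same median. In CAA/G105 against CAG0 only Hen1 was called among the 7, as higher. There 13.2% of all probe sets were called, 7.72% as lower and 5.49% as higher (692 and 492, against 586 lower and 603 higher after the same shift), so the share of members called was near that of the array as a whole. In CAG100 against CAA/G105, 3 of 7 were lower (drosha, pasha and Hen1) and none was higher, beside 20.8% of all probe sets called and 10.5% called lower. The median difference over the 7 genes was -0.24 in CAG100 minus CAG0, -0.00 in CAA/G105 minus CAG0 and -0.16 in CAG100 minus CAA/G105, beside medians over all tested probe sets of -0.03, -0.01 and -0.02. The first 2 of these comparisons share the CAG0 arrays, both CAG100 comparisons share the CAG100 arrays, and both CAA/G105 comparisons share the CAA/G105 arrays. The comparisons are therefore not independent of each other.

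**Figure D1:**
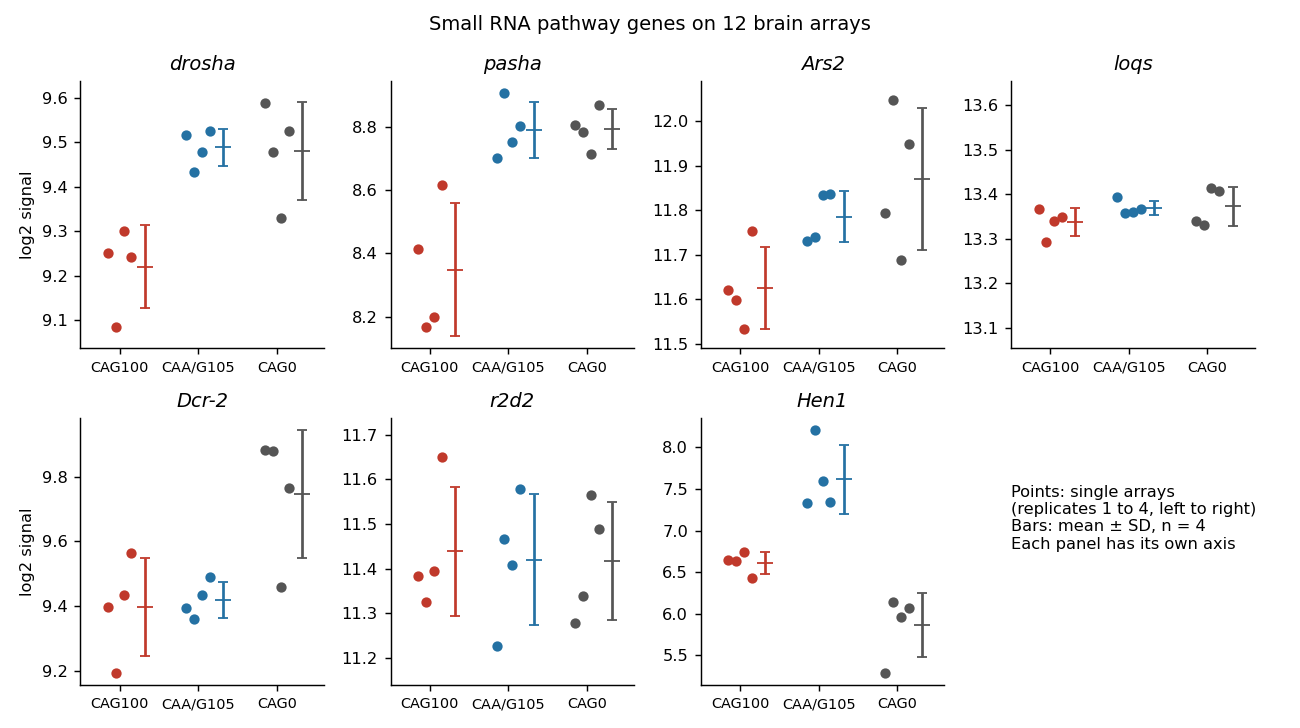
Log2 signal (vertical axis, separate for each panel) of the 7 measured genes on each of the 12 arrays, with CAG100, CAA/G105 and CAG0 from left to right; points are arrays and bars are mean ± SD over 4 arrays. The CAG100 arrays lie below all others for drosha and pasha, and the 3 genotypes are separated for Hen1.

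The microprocessor subunit genes were lower in CAG100 than in either other genotype. For pasha (probe set 1637101_at, chromosome arm 3R), the partner that holds the hairpin for cutting, CAG100 arrays read 8.41, 8.17, 8.20 and 8.62. CAA/G105 arrays read 8.70, 8.91, 8.75 and 8.80, and CAG0 arrays 8.80, 8.78, 8.71 and 8.87. Every CAG100 array was below every array of the other genotypes, while CAA/G105 and CAG0 overlapped.

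For pasha the difference was -0.44 ± 0.10 in CAG100 minus CAG0 (1.36-fold lower, limma adjusted p = 0.00966) and -0.44 ± 0.10 in CAG100 minus CAA/G105 (1.36-fold lower, adjusted p = 0.00844). Between CAA/G105 and CAG0 it was -0.00 ± 0.10 (adjusted p = 0.994), with a 95% interval of 0.858 to 1.16 for the ratio. Both pasha calls held in 22 of 23 alternatives and were lost without the 3 Akh-negative arrays, where 2 CAG100 arrays remained (-0.40, adjusted p = 0.0894, and -0.41, adjusted p = 0.0999).

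The nuclease gene drosha (1630216_at, arm 2R), whose product makes the cut, read 9.25, 9.09, 9.30 and 9.24 on the CAG100 arrays. It read 9.52, 9.43, 9.48 and 9.52 on the CAA/G105 arrays and 9.59, 9.48, 9.33 and 9.52 on the CAG0 arrays. As with pasha, no CAG100 array reached the lowest array of the other genotypes, although the gap to CAG0 replicate 3 was small.

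For drosha the difference was -0.26 ± 0.07 in CAG100 minus CAG0 (1.20-fold lower, adjusted p = 0.0285) and -0.27 ± 0.07 in CAG100 minus CAA/G105 (1.20-fold lower, adjusted p = 0.0216). Between CAA/G105 and CAG0 it was 0.01 ± 0.07 (adjusted p = 0.962). The call against CAG0 was lost in 7 of 23 alternatives. It missed the threshold without CAG0 replicate 1, 2 or 4 or CAG100 replicate 2 or 4 (-0.27 to -0.21, adjusted p = 0.0545 to 0.0879). In a fit of the 2 genotypes alone it missed it too (adjusted p = 0.072). The call against CAA/G105 was lost in 3 alternatives, among them leaving out CAG100 replicate 2 (adjusted p = 0.068) or CAA/G105 replicate 4 (adjusted p = 0.0534). Without the 3 Akh-negative arrays the differences were -0.32 (adjusted p = 0.0745) and -0.33 (adjusted p = 0.0815).

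The astrocyte gene alrm was, like pasha and drosha, lowest in CAG100. It read 14.23 to 14.28 on CAG100 arrays, 14.37 to 14.45 on CAA/G105 arrays and 14.37 to 14.51 on CAG0 arrays, so CAG100 overlapped neither other genotype. The difference was -0.19 ± 0.03 in CAG100 minus CAG0 (adjusted p = 0.00128) and -0.15 ± 0.03 in CAG100 minus CAA/G105 (adjusted p = 0.00429), and both were called in all 23 alternatives. No other glial marker was called in CAG100 minus CAG0. There moody (0.20), loco (0.10), repo (0.04), Gs2 (0.01) and nrv2 (0.00) were not lower, and wrapper was (-0.10). The median over the 7 glial markers was 0.01, so the fall of alrm was not shared by the list. The part of glial RNA in the pasha and drosha results was not tested.

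The gene Ars2 (1636949_s_at, arm 2R) encodes a nuclear cap-associated protein that feeds transcripts to the microprocessor and, in flies, also takes part in siRNA silencing. Its probe set carries a suffix that marks probes shared by several transcripts, although the annotation names 1 gene. CAG100 arrays read 11.62, 11.60, 11.53 and 11.75, CAA/G105 arrays 11.73, 11.74, 11.83 and 11.84, and CAG0 arrays 11.79, 12.05, 11.69 and 11.95. The CAG100 values were the lowest on average, but CAG100 replicate 4 lay above CAG0 replicate 3 and above 2 CAA/G105 arrays.

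Ars2 was 1.18-fold lower in CAG100 than in CAG0 (-0.24 ± 0.07, adjusted p = 0.0412). It did not pass in CAG100 minus CAA/G105 (-0.16 ± 0.07, adjusted p = 0.152) or in CAA/G105 minus CAG0 (-0.08 ± 0.07, adjusted p = 0.537). This was the least stable call. It was lost in 14 of 23 alternatives: with no filter, with quantile normalization, with no variance trend, in a fit of the 2 genotypes alone, without the Akh-negative arrays (-0.19, adjusted p = 0.251), and when 1 array was left out for CAG0 replicates 2 and 4, CAG100 replicates 1, 2 and 3 and each CAA/G105 array (-0.24 to -0.18, adjusted p = 0.0507 to 0.115).

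The 2 dicing enzymes could be followed only through Dcr-2, since no probe set is paired with Dcr-1 by gene ID. Dcr-2 (1641449_at, arm 2R) encodes the enzyme that cuts long double-stranded RNA. It read 9.40, 9.19, 9.43 and 9.56 on CAG100 arrays, 9.39, 9.36, 9.44 and 9.49 on CAA/G105 arrays, and 9.88, 9.88, 9.46 and 9.77 on CAG0 arrays. Both repeat genotypes lay below CAG0 replicates 1, 2 and 4, and CAG0 replicate 3 lay within their range.

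Dcr-2 was 1.27-fold lower in CAG100 than in CAG0 (-0.35 ± 0.10, adjusted p = 0.0349). In CAA/G105 minus CAG0 the difference was of similar size and missed the threshold (-0.33 ± 0.10, adjusted p = 0.0574), and CAG100 minus CAA/G105 gave -0.02 ± 0.10 (adjusted p = 0.898), with an interval of 0.843 to 1.15 for the ratio. Neither side of the threshold was firm. The CAG100 call was lost in 10 of 23 alternatives, among them leaving out CAG0 replicate 1, 2 or 4 or CAG100 replicate 1, 2 or 3 (-0.36 to -0.28, adjusted p = 0.0546 to 0.103) and leaving out the 3 Akh-negative arrays (-0.37, adjusted p = 0.145). The CAA/G105 difference was called after shifting arrays to the same median (-0.29, adjusted p = 0.041), with quantile normalization (-0.30, adjusted p = 0.0327), with array weights (-0.36, adjusted p = 0.0201), without CAG0 replicate 3 (-0.42, adjusted p = 0.00662) and without CAG100 replicate 2 (adjusted p = 0.0497).

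The double-stranded RNA binding partners of the dicing enzymes gave no call in any comparison. loqs (1636788_a_at, arm 2L), the partner of Dicer-1 and, in 1 isoform, of Dicer-2, read 13.29 to 13.37 in CAG100 brains, 13.36 to 13.39 in CAA/G105 brains and 13.33 to 13.41 in CAG0 brains. The ratio of CAG100 to CAG0 had a 95% interval of 0.934 to 1.02 (adjusted p = 0.42) and that of CAA/G105 to CAG0 an interval of 0.955 to 1.04 (adjusted p = 0.955). Of the 7 genes loqs had the narrowest interval in each comparison. Its probe set carries a suffix that marks several transcripts of 1 gene, so isoforms were not separated.

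The Dicer-2 partner gene r2d2 (1634859_at, arm 2L) read 11.32 to 11.65 in CAG100 brains, 11.23 to 11.58 in CAA/G105 brains and 11.28 to 11.57 in CAG0 brains. The groups overlapped almost fully, and the ratio of CAG100 to CAG0 had an interval of 0.882 to 1.17 (adjusted p = 0.906). In CAA/G105 minus CAG0 the difference was 0.00 ± 0.09 (adjusted p = 0.993). No alternative gave a call for r2d2 or loqs.

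Hen1 (1623887_at, arm 2R), which encodes the methyltransferase that methylates the ends of siRNAs and piRNAs and so protects them from trimming, differed between all 3 genotypes. It read 6.65, 6.63, 6.74 and 6.43 on CAG100 arrays, 7.33, 8.21, 7.59 and 7.34 on CAA/G105 arrays, and 5.29, 6.14, 5.96 and 6.07 on CAG0 arrays. The order was CAA/G105, then CAG100, then CAG0, and no array of 1 genotype fell within the range of another.

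The means of Hen1 were 6.62 ± 0.13 in CAG100 brains, 7.62 ± 0.41 in CAA/G105 brains and 5.86 ± 0.39 in CAG0 brains. Against CAG0, Hen1 in CAA/G105 was 3.37-fold higher (1.75 ± 0.22, interval 2.43 to 4.68, adjusted p = 0.000156), 1.68-fold higher in CAG100 than in CAG0 (0.75 ± 0.22, interval 1.21 to 2.34, adjusted p = 0.032), and 2.00-fold lower in CAG100 than in CAA/G105 (-1.004 ± 0.217, adjusted p = 0.00626). Only 1.30% of tested probe sets had a larger absolute difference between CAA/G105 and CAG0. It was the 1 call of the 9 among these genes that held in all 23 alternatives (1.56 to 1.85, adjusted p at most 0.00319).

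The smaller Hen1 difference between CAG100 and CAG0 missed the threshold without CAG0 replicate 1 or CAG100 replicate 1, 2 or 3 (0.56 to 0.74, adjusted p = 0.0544 to 0.0824), with no filter (adjusted p = 0.0901) and without the 3 Akh-negative arrays (0.67, adjusted p = 0.198). The difference between CAG100 and CAA/G105 missed it only in the last of these alternatives (-1.09, adjusted p = 0.062). The mean of 8 haemocyte marker genes, all with a probe set, was 10.10 to 10.53 in CAG100 brains, 8.89 to 9.99 in CAA/G105 brains and 10.0045 to 10.86 in CAG0 brains, lowest in the genotype with the highest Hen1, and none of the 8 was under log2 4 on all arrays. Of the glial markers, repo (0.15 ± 0.03, adjusted p = 0.0112) and moody (0.27 ± 0.08, adjusted p = 0.0463) were higher in CAA/G105 than in CAG0, and repo was lower in CAG100 than in CAA/G105 (-0.10 ± 0.03, adjusted p = 0.0447). Not called in CAA/G105 minus CAG0 were loco (0.09), Gs2 (0.04), nrv2 (0.04), alrm (-0.03) and wrapper (-0.20, adjusted p = 0.0566). The median over the 7 glial markers was 0.04 in that comparison. The first repo call held in 22 of 23 alternatives and was lost without the 3 Akh-negative arrays (adjusted p = 0.0624), whereas the second held in 7 and the moody call in 8. Leaving out 1 array lost the moody call for all arrays but CAG0 replicate 3 and CAG100 replicate 4, and the second repo call for all but CAG0 replicates 2 and 3 and CAA/G105 replicate 4. The part of these markers in the Hen1 result was not tested.

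**Figure D2:**
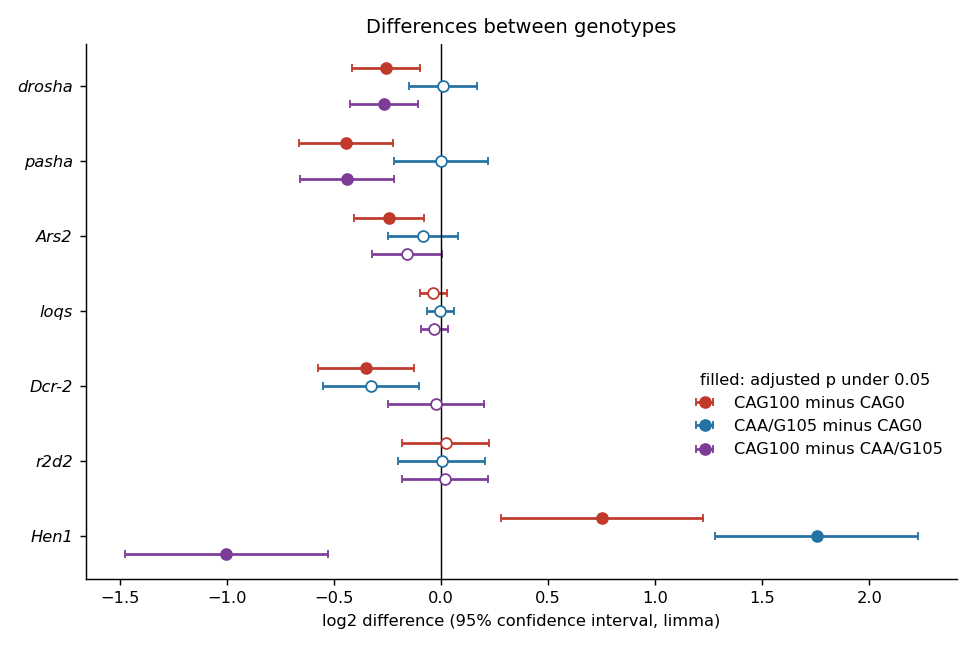
Log2 difference (horizontal axis) of the 7 genes in the 3 comparisons, with 95% confidence intervals from limma; filled points had adjusted p under 0.05. The intervals of drosha and pasha lie below 0 in both comparisons that involve CAG100 and span 0 in CAA/G105 minus CAG0, while Hen1 lies furthest from 0 in CAA/G105 minus CAG0 at 1.75.

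Counting only complete separation of the arrays, 3 of the 7 genes did not overlap in CAG100 against CAG0 (pasha and drosha lower, Hen1 higher), beside 20.8% of all tested probe sets. In CAA/G105 against CAG0 1 did not overlap (Hen1), beside 17.6%, and in CAG100 against CAA/G105 3 did not (all lower), beside 25.4%. In these 7 cases of 21 the exact two-sided permutation test gave p = 0.0286, the smallest that 4 against 4 arrays allow. Complete separation always gives this value, so here the test is no separate check. Dcr-2 and Ars2 in CAG100 against CAG0 gave an exact permutation p of 0.0571 each, as did Dcr-2 in CAA/G105 against CAG0.

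Of 40 other genes of the same pathways, listed in 5 further groups, 34 were matched to a probe set and tested. The names Hop, Dcp1 and Dcp2 were not resolved in the gene table, so no probe set was looked up for them. In CAG100 minus CAG0 2 were lower and none higher (5.88% and 0%, beside 10.4% and 7.86% of all probe sets). At an unadjusted limma p under 0.05, 9 were lower and 1 was higher. In CAA/G105 minus CAG0 none was lower and 2 were higher (0% and 5.88%, beside 7.72% and 5.49%). At the same unadjusted limma p, 4 were lower and 6 higher. In CAG100 minus CAA/G105 4 were lower and 2 higher (11.8% and 5.88%, beside 10.5% and 10.4%), and the share called lower was near that of the array as a whole. Unadjusted limma p was under 0.05 for 8 lower and 5 higher genes. The median differences over the 34 genes were -0.05, -0.04 and -0.04. Without the 3 Akh-negative arrays, a setting chosen after seeing the data, the calls were PAN2 in CAG100 minus CAG0, none in CAA/G105 minus CAG0 (7 at an unadjusted limma p under 0.05) and Pop2, Not11 and PAN2 in CAG100 minus CAA/G105, all lower.

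All calls that pointed down lay among the 16 measured silencing effectors, which shorten poly(A) tails, remove caps and repress translation of microRNA targets. Of the 34 further genes tested, 16 are on this list. In CAG100 minus CAG0 2 of the 16 were lower (12.5%, beside 10.4% of all probe sets), a share near that of the array. In CAG100 minus CAA/G105 4 of the 16 were lower (25%, beside 10.5%). In CAA/G105 minus CAG0 none was lower and 2 were higher (12.5%, beside 5.49%). PAN2, which encodes the catalytic subunit of the PAN deadenylase, was lower in CAG100 than in CAG0 (-0.26 ± 0.06, adjusted p = 0.0106) and than in CAA/G105 (-0.23 ± 0.06, adjusted p = 0.0149). PAN2 averaged 11.59 ± 0.08 on CAG100 arrays, 11.82 ± 0.11 on CAA/G105 arrays and 11.85 ± 0.06 on CAG0 arrays. gw, which encodes the GW-repeat protein that links Argonaute-1 to the deadenylases, was lower in CAG100 than in CAG0 (-0.16 ± 0.05, adjusted p = 0.0411), with no call against CAA/G105 (-0.07 ± 0.05, adjusted p = 0.324). PAN2 missed the threshold against CAA/G105 without CAG100 replicate 2 (adjusted p = 0.0508). The gw call was lost in 15 of 23 alternatives, among them leaving out CAG0 replicate 1 or 2, CAG100 replicate 2, 3 or 4 or any CAA/G105 array (adjusted p = 0.0502 to 0.115).

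Of the CCR4-NOT deadenylase genes, Not11 was higher in CAA/G105 flies than in CAG0 flies (0.24 ± 0.07, adjusted p = 0.0352) and lower in CAG100 than in CAA/G105 (-0.39 ± 0.07, adjusted p = 0.0014). The catalytic subunit gene Pop2 was lower in CAG100 than in CAA/G105 (-0.33 ± 0.06, adjusted p = 0.00123), at 12.17 ± 0.03 on CAG100 arrays, 12.50 ± 0.05 on CAA/G105 arrays and 12.34 ± 0.13 on CAG0 arrays. Edc3, a decapping enhancer gene, was higher in CAA/G105 flies than in CAG0 flies (0.18 ± 0.05, adjusted p = 0.0205) and lower in CAG100 than in CAA/G105 (-0.18 ± 0.05, adjusted p = 0.0165). me31B, the helicase gene of the same complexes, and Ge-1 had no call in any comparison. The Pop2 and Not11 differences between CAG100 and CAA/G105 held in all 23 alternatives. Not11 against CAG0 missed the threshold without CAG0 replicate 1, 3 or 4 or CAA/G105 replicate 2, 3 or 4 (adjusted p = 0.0656 to 0.0887). Edc3 missed it against CAG0 without CAG0 replicate 1, 2 or 4 (adjusted p = 0.0513 to 0.0556), and between CAG100 and CAA/G105 without CAG100 replicate 4 (adjusted p = 0.0518).

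None of 3 genes of cap binding and microRNA export, 4 chaperone genes of Argonaute loading, 8 genes of RISC (the Argonaute silencing complex) partners and 3 genes of small RNA trimming and tailing was called in CAG100 minus CAG0 or CAA/G105 minus CAG0, where 4 of the 18 had an unadjusted limma p under 0.05 in each. The cap-binding gene Cbp20 (0.23 ± 0.07, adjusted p = 0.0403) and the RISC partner gene vig2 (0.21 ± 0.07, adjusted p = 0.044) were higher in CAG100 than in CAA/G105. Neither call was firm: leaving out 1 array lost Cbp20 for CAG0 replicate 4, CAG100 replicates 2, 3 and 4 and CAA/G105 replicates 1, 2 and 3 (adjusted p = 0.0552 to 0.112), and vig2 for the same arrays and CAG0 replicate 1 (adjusted p = 0.0522 to 0.118). Nbr, the exonuclease gene that trims microRNAs on Argonaute-1, gave -0.18 in CAG100 minus CAG0 and did not pass (adjusted p = 0.0505). The chaperone genes, Hsc70-4 and Droj2 among them, spanned 0.01 to 0.11 in that comparison.

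**Figure D3:**
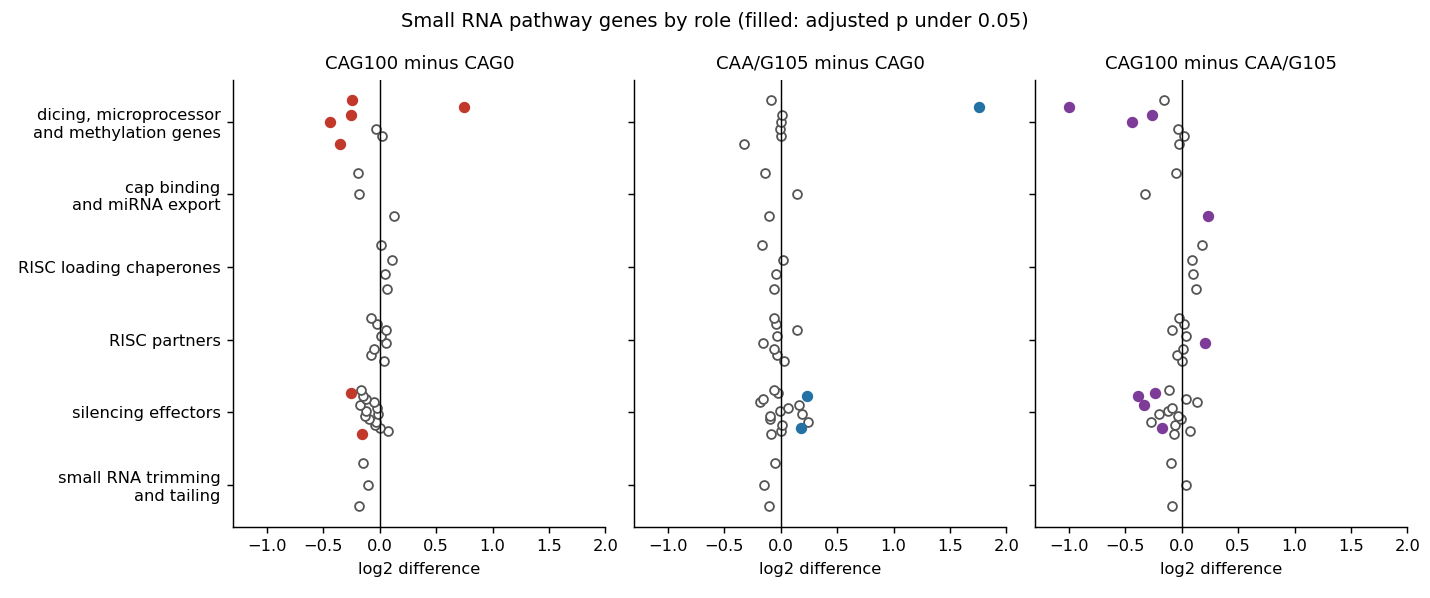
Log2 difference (horizontal axis) of each tested gene in the 3 comparisons, by role; filled points had adjusted p under 0.05. Hen1 stands furthest from 0 in CAA/G105 minus CAG0, and the differences of the 34 further pathway genes lie between -0.39 and 0.24.

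The piRNA pathway, which uses Hen1 too and is known mainly from the germ line, was largely below the limit of signal in these brains: of 27 listed genes 25 had a probe set and 9 were tested. In CAG100 minus CAG0 2 of the 9 were lower, mael (-1.37 ± 0.20, adjusted p = 0.000558), needed in flies for piRNA silencing of transposons, and the helicase gene armi (-0.64 ± 0.17, adjusted p = 0.0224). mael was also lower in CAG100 than in CAA/G105 (-1.81 ± 0.20, adjusted p = 4.54e-05), and its differences in both CAG100 comparisons held in all 23 alternatives. The Tudor-domain gene tapas was lower in CAA/G105 brains than in CAG0 brains (-0.28 ± 0.08, adjusted p = 0.0301). Leaving out 1 array lost armi for CAG0 replicates 2 and 4 and CAG100 replicate 2 (adjusted p = 0.0547 to 0.0658), and tapas for CAG0 replicates 1, 2 and 4 and CAA/G105 replicates 2, 3 and 4 (adjusted p = 0.0504 to 0.0882). Without the 3 Akh-negative arrays mael was called lower in CAG100 in both comparisons, and armi and tapas were not called. None of the 9 was called higher by limma in any comparison (1 had an unadjusted p under 0.05, in CAA/G105 minus CAG0), so Hen1 was the 1 gene of these small RNA lists that was called higher in both repeat genotypes than in CAG0.

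The 5 genes whose signal tracked Hen1 most closely over the 12 arrays were CG14853, AstC-R1, CG33229, nuf and CG12818, with Pearson r of 0.979 to 0.924 over samples that fall into 3 genotypes. AstC-R1, an allatostatin C receptor gene, averaged 10.60 ± 0.14 in CAG100 brains, 11.58 ± 0.06 in CAA/G105 brains and 9.96 ± 0.19 in CAG0 brains. nuf, which encodes an adaptor of recycling endosomes, averaged 6.26 ± 0.06 in CAG100 brains, 6.67 ± 0.42 in CAA/G105 brains and 5.72 ± 0.34 in CAG0 brains. All 5 lie on arms 3L or 3R, and Hen1 on 2R.

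**Figure D4:**
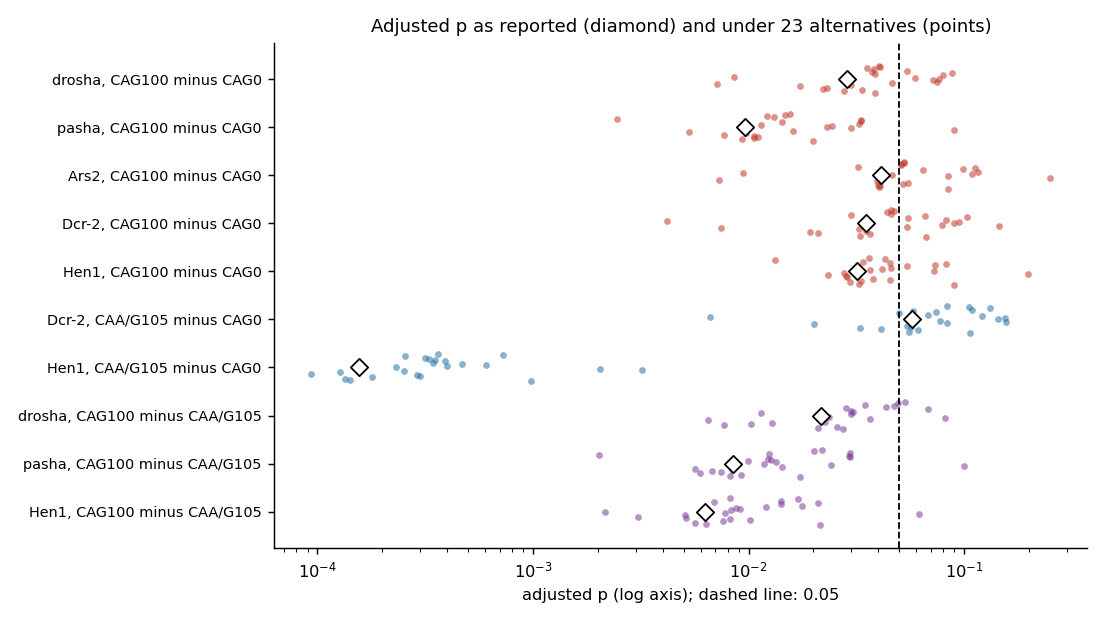
Adjusted p (horizontal log axis) of the 9 calls and of Dcr-2 in CAA/G105 minus CAG0, as reported (diamonds) and under each of 23 alternatives (points); the dashed line is 0.05. Only Hen1 in CAA/G105 minus CAG0 stays left of the line throughout, at 0.00319 or less.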

How the data were processed

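Per the labels, total RNA was amplified as cDNA with a NuGEN kit and biotin-labelled. GCRMA and Partek, without versions, are named per the submitters' processing notes. The deposited values are log2 signals per probe set, already normalized across arrays, and were used unchanged. Symbols came from the array's annotation: 13647 probe sets name 1 gene, 402 several and 4720 none, and 13544 were matched by gene ID to a RefSeq gene table (assembly Release 6 plus ISO1 MT) that served for names, chromosome arms and gene order only. No genome or sequence was used.

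Tests covered the 8966 probe sets, 183 controls aside, with log2 4 or more on 4 or more of the 12 arrays. limma 3.58.1 (R 4.3.3) fitted 3 genotype means in 1 model with a variance trend. The code was also run on simulated arrays with independent noise, which checks the code and does not bear on the calls made here. A gene was counted by its probe set with the highest mean. The 4 samples per genotype are called independent in the labels, and their number limits the precision. Named were all members, up to 4 called genes per pathway list by largest difference, markers that moved with a member, and the 5 probe sets most correlated with the most changed member. Members and lists were chosen with earlier results of these data known. Outside the rule, gw (the fifth called silencing effector by size), me31B, Ge-1, Hsc70-4, Droj2, Nbr, cac and fln were named after their values were seen. Leaving out the 3 Akh-negative arrays for the pathway lists was chosen after seeing the data.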

Additional observations from a re-analysis of the deposited data

How the results depend on the processing

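Of the 9 calls among the 7 genes 1 held under all 23 alternatives, no call changed sign, and 11 of the 12 differences without a call stayed without one. In CAG100 minus CAG0, 5 member genes were called, against 2 with no filter on low values, 2 in a fit of the compared genotypes alone, 1 at adjusted p under 0.01 and 0 without the 3 Akh-negative arrays (3 at an unadjusted limma p under 0.05); leaving out 1 array gave 1 to 5. Over all probe sets that comparison had 1639 calls, against 797 at 0.01 and 948 without those 3 arrays, and 1119 to 1949 leaving out 1 array. In CAA/G105 minus CAG0, 1 member was called, against 2 after shifting arrays to the same median, 2 with quantile normalization and 2 with array weights; leaving out 1 array gave 1 to 2. Its 1184 calls became 642 at 0.01 and 874 to 1529 leaving out 1 array. In CAG100 minus CAA/G105, 3 members were called, against 0 without the 3 arrays (3 unadjusted; 2 CAG100 arrays remain) and 2 to 3 leaving out 1 array; all 1869 calls became 979 at 0.01, 924 without the 3 arrays and 1353 to 2156 leaving out 1 array. With replicate number as a block, Dcr-2 in CAG100 minus CAG0 had adjusted p = 0.0545 and no other member's call changed. The numbers were not taken as pairs: same-numbered arrays deviated together at r = -0.26 to 0.39, over 0.1 in 3 of 12 pairs, and 5 of 12 arrays correlated best with their own number. Shifting arrays to the same median moved the median of all probe sets by at most 0.04. Of 14 calls among the further pathway and piRNA genes 5 held under all 23 alternatives and none changed sign.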

Other observations

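The 3 tested genes on either side of each member in the gene table's order, 42 genes in all, were compared after the members' values had been seen. In CAG100 minus CAG0 4 of the 42 were called (9.52%, beside 18.3% of all probe sets), in CAA/G105 minus CAG0 5 (11.9%, beside 13.2%) and in CAG100 minus CAA/G105 8 (19.0%, beside 20.8%). In both comparisons with CAA/G105 the share was near that of the array. None of the 6 neighbours of pasha or of Dcr-2 was called in any comparison. Beside Hen1, CG18343 was higher in both repeat genotypes than in CAG0, by 1.47 in CAG100 and 0.53 in CAA/G105, an order opposite to that of Hen1. Smyd4-4, on the same side, was lower in CAG100 than in CAG0 (-0.28). On the other side bsd, the nearest tested gene, was called in none, and the next, CG8407, was lower in CAA/G105 than in CAG0 (-0.51). Beside r2d2, which gave no call, LKRSDH, CG7149 and the laminin gene LanB1 were lower in CAA/G105 than in CAG0 (-0.79, -0.44 and -1.24).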
